A study of Mus musculus with 6 samples.

Results

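The genes described here are the collagens of the mouse, 44 genes named Col, a number, a and a number among the 55471 gene identifiers counted by RNA-seq in the embryonic telencephalon with and without Dicer. Members were found by their names, and all 44 could be placed in GENCODE on the files' genome build. To examine how these genes respond to loss of Dicer, the enzyme that cuts miRNA precursors, 3 control and 3 Rx-Dicer samples of the rostral end of the telencephalic primordium were compared at E11.5. Control embryos were DicerF/F, with floxed Dicer alleles and no Cre, although the genotype label calls them WT. Rx-Dicer embryos were RxCre-Dicer F/F, with the same floxed alleles plus a Cre recombinase under Rx regulatory sequences, which are active in the anterior neural fold that gives rise to the forebrain and eye. The floxed allele (Dicer1tm1Bdh/J) was kept on C57BL/6 and the Rx3-Cre line on CD1, and how the crosses mixed these backgrounds is not given. Recombination is under way but not complete across the telencephalon at this age, and the driver is not directed at the mesenchyme, vessels or blood that a dissected piece also holds. Embryos of either sex were used, and the sex of each sample is not given. Whether libraries came from single or several embryos is not given either, and p-values measure only the spread between these samples.

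Libraries held between 34471501 and 48373468 reads on genes, and a floor of 3 counts corresponds to between 0.0620 and 0.0870 counts per 1000000 reads on genes (CPM). Floors of this kind cover counting error only. Dicer1, the targeted gene, had 6355, 7070 and 6270 normalised counts (scaled by the median-of-ratios factor of each library) in control samples 1 to 3, and 4777, 7002 and 4644 in Rx-Dicer samples 1 to 3. The log2 fold change (Rx-Dicer over control) of -0.26 ± 0.17 (SE) did not pass, with DESeq2 adjusted p = 0.567, whereas without Rx-Dicer 2 it was -0.47 (adjusted p = 8.81e-04). This count spans all exons of Dicer1, so it does not measure the floxed part alone. By in situ hybridisation the study reported a substantial reduction of Dicer in the rostral telencephalon of Rx-Dicer embryos at a later age. Genes were called changed at a DESeq2 adjusted p under 0.05 and a log2 fold change beyond 0.32 in size, which 2.93% of the 17128 genes with an adjusted p met, 1.75% higher and 1.18% lower in Rx-Dicer samples.

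Collagens are proteins of the extracellular matrix built from 3 polypeptide chains wound into a triple helix, and each chain has a gene of its own. Fibrillar collagens assemble into the fibres of connective tissue, type IV collagens form the sheet-like network of basement membranes, and other classes decorate fibrils, span the cell membrane or link layers. In the developing brain most matrix collagen is made by meningeal mesenchyme and blood vessels around and within the neuroepithelium, whereas Col25a1, a transmembrane collagen shed from the cell surface, is made by neurons. In bulk tissue fewer cells of a type and less RNA per cell cannot be told apart.

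Of the 44 collagens, 39 had an adjusted p, and 5 of them (12.8%) were called, where 2.93% of all genes tested were. Of these 5, 4 were higher (Col2a1, Col18a1, Col4a6 and Col22a1) and 1 was lower (Col25a1) in Rx-Dicer samples. The other 34 did not pass. The median log2 fold change of the 39 was 0.13, against -0.001 over all genes tested, and 26 of the 39 values were above 0. Among these 39, all 3 Rx-Dicer values lay above all 3 control values for 6 collagens (the 4 called higher, Col4a5 and Col13a1), where 8.55% of all genes had that order, and below them for Col25a1 alone, where 10.7% of all genes did. By edgeR's quasi-likelihood test, which called 8 of 17954 genes (0.0446%), 0 collagens passed, 8 had an unadjusted p under 0.05 (12.9% of all genes did), and the smallest adjusted p was 0.0520, for Col25a1. The called collagens are therefore given with both adjusted p-values. The 5 collagens without an adjusted p (Col4a3, Col6a5, Col10a1, Col19a1 and Col28a1) had 14 to 53 counts in total over the 6 libraries.

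**Figure D1:**
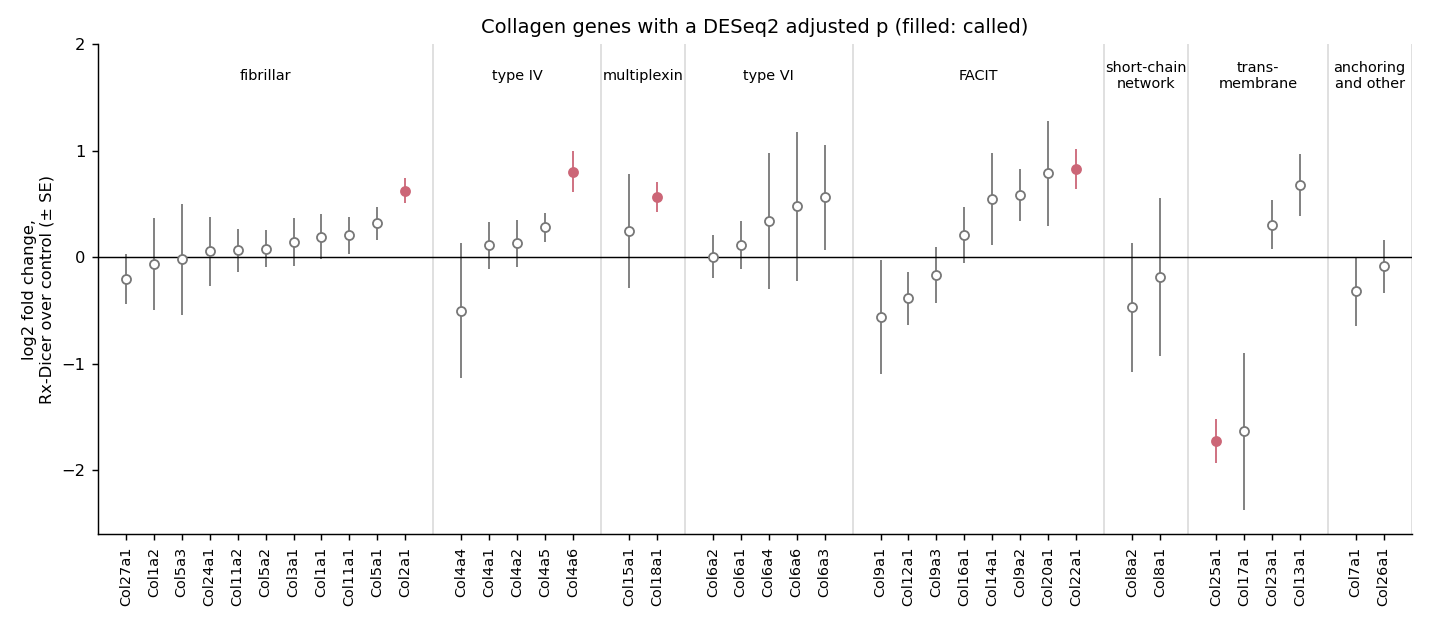
The log2 fold change of each collagen with an adjusted p, Rx-Dicer over control, is plotted as a point with a bar of ± 1 SE, grouped by collagen class, and filled points passed the DESeq2 test. Col25a1 lies at -1.72, the 4 collagens called higher lie between 0.56 and 0.83, and the bars of Col1a1, Col1a2, Col3a1, Col4a1 and Col4a2 reach or come close to 0.

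Col25a1 (GRCm38 chr3:130131501-130599877, plus strand) was the collagen that fell. It had 662, 457 and 608 normalised counts in the control samples and 149, 202 and 172 in the Rx-Dicer samples. The groups did not overlap, and the highest Rx-Dicer value lay well below the lowest control value. The mean went from 576 ± 106 (SD, n = 3) to 174 ± 26.3 (n = 3), which left 0.30 of the control level, a log2 fold change of -1.72 ± 0.21 (95% interval -2.13 to -1.32) with a DESeq2 adjusted p of 1.73e-13 and an edgeR adjusted p of 0.0520. Leaving out each library in turn gave -1.87 to -1.62, and DESeq2 called the gene each time. Its protein is a membrane-spanning collagen with an extracellular part that can be cleaved off, first isolated from amyloid plaques and needed for motor neuron contact with muscle. Small predicted genes on the same strand lie within the locus, and reads falling on both were not counted for either.

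Because Col25a1 is a neuronal gene, its level was set beside neuronal markers. The 10 neuronal markers (Tubb3, Map2 and Dcx the most abundant) summed to 1622 to 2146 CPM in control samples and 1431 to 2035 in Rx-Dicer samples, and the groups overlapped. In that list 2 genes (20%) were called, where 2.93% of all genes were. They were Nefl and Nefm, both encoding neurofilament subunits, and both were higher. Their edgeR adjusted p-values were 0.172 and 0.212. With each of the 6 libraries left out in turn, DESeq2 called Nefl 5 times and Nefm 2 times. The median log2 fold change of the 10 markers was -0.16, and 2 that were not called had all Rx-Dicer values below the controls, Gap43 at -0.44 ± 0.15 (DESeq2 adjusted p = 0.0841) and Elavl3 at -0.41 ± 0.16 (adjusted p = 0.152). Col25a1 relative to the summed markers, on a log2 scale, was -7.09, -7.27 and -6.92 in control samples and -9.14, -8.35 and -8.50 in Rx-Dicer samples, a difference of -1.57 with no overlap. Since Col25a1 alone was without overlap and the marker sums overlapped, this ratio adds no separate support.

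Of the other 3 transmembrane collagens none was called. Col13a1, found at cell contacts and the neuromuscular junction, had 78.2, 81.5 and 139 normalised counts in control and 189, 150 and 141 in Rx-Dicer samples. The groups were separate by a narrow margin, 139 against 141. Its log2 fold change of 0.68 ± 0.29 did not pass (DESeq2 adjusted p = 0.245), except without control 3, where it was 1.00 with an adjusted p of 0.0373. Col23a1 had a log2 fold change of 0.31 ± 0.23 (DESeq2 adjusted p = 0.668).

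Col17a1, a hemidesmosome component of stratified epithelia, had 59.9, 10.2 and 62.0 normalised counts in control and 25.7, 4.08 and 12.4 in Rx-Dicer samples. The groups overlapped through control 2, and its log2 fold change of -1.64 ± 0.73 was close in size to that of Col25a1 but had a DESeq2 adjusted p of 0.274. Some epithelial markers had the same low libraries. Krt5 was at 131, 5.09 and 196 in control and 18.0, 8.15 and 3.80 in Rx-Dicer samples, and Trp63 at 318, 6.11 and 144 against 24.9, 4.08 and 1.90. The 7 epithelial markers summed to 11.3 to 62.2 CPM in control and 17.2 to 33.0 in Rx-Dicer samples, and no marker was at 0 throughout. In that list 1 gene (14.3%), Krt15, was called lower, where 1.18% of all genes were. It had 151, 2.04 and 44.2 normalised counts in control and 1.72, 4.08 and 0.951 in Rx-Dicer samples, so the groups overlapped. Its DESeq2 adjusted p was 0.0446, and its counts were too few for the edgeR test. With each of the 6 libraries left out in turn, it was called 1 time. Epcam, the most abundant, was at 883, 341 and 373 in control and 785, 459 and 614 in Rx-Dicer samples, and Krt18 had a log2 fold change of -0.22 ± 0.79. Their part in the Col17a1 values was not tested.

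**Figure D2:**
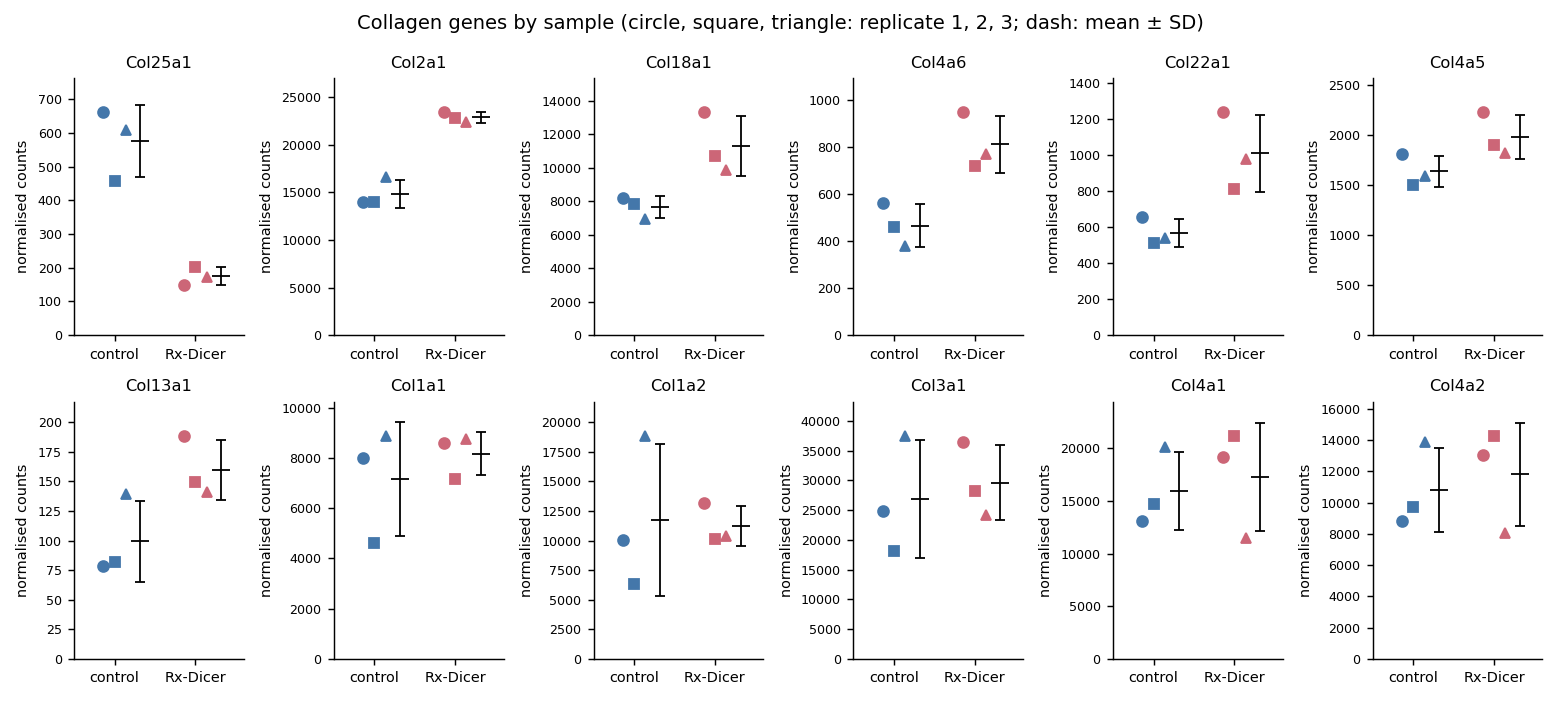
Normalised counts in each of the 3 control and 3 Rx-Dicer samples are plotted for single collagens, with a dash and error bar for the mean ± SD of each group. The groups are apart for Col25a1, Col2a1, Col18a1, Col4a6, Col22a1, Col4a5 and, narrowly, Col13a1, and mixed for Col1a1, Col1a2, Col3a1, Col4a1 and Col4a2.

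Among the 11 fibrillar collagens, all of which had an adjusted p, only Col2a1 was called. Col2a1 (chr15:97975602-98004695, minus strand), the chain of the homotrimeric collagen of cartilage, notochord and the vitreous, and made by early neuroepithelium too, had 13978, 14005 and 16594 normalised counts in control samples. In Rx-Dicer samples it had 23473, 22831 and 22366. All 3 Rx-Dicer samples were higher, and they varied less among themselves than the controls. The mean rose 1.54-fold, from 14859 ± 1503 to 22890 ± 556, a log2 change of 0.62 ± 0.12 (95% interval 0.40 to 0.85), a DESeq2 adjusted p of 2.55e-05 and an edgeR adjusted p of 0.0719. DESeq2 called it whichever library was left out, with values of 0.58 to 0.71.

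Markers of cartilage were examined beside Col2a1. The 7 cartilage markers summed to 232 to 258 CPM in control and 209 to 277 in Rx-Dicer samples and none was called. Acan, the main cartilage proteoglycan, had 12.2 to 26.5 normalised counts in the 6 libraries, Matn1 at most 1.72 and Matn3 44.7 to 150. Cnmd, a secreted cartilage protein, had 26.9, 7.13 and 17.8 in control and 58.3, 34.6 and 26.6 in Rx-Dicer samples, with a log2 fold change of 1.22 ± 0.58 that did not pass. Most of the summed level came from Sox6, Sox5 and Hapln1, which other tissues also express. The 8 neural progenitor markers summed to 3700 to 3999 CPM in control and 3377 to 3920 in Rx-Dicer samples. In that list 2 genes (25%), Pax6 and Fabp7, were called lower, where 1.18% of all genes were. Their edgeR adjusted p-values were 0.144 and 0.269. With each of the 6 libraries left out in turn, Pax6 was called 5 times and Fabp7 2 times. The part of cartilage or of neural progenitors in the Col2a1 values was not tested.

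The chains of types I and III, the chief fibre-forming collagens of mesenchyme, did not pass the test. Col1a1 had 7989, 4595 and 8892 normalised counts in control and 8590, 7182 and 8766 in Rx-Dicer samples. Col1a2, which joins Col1a1 in the type I heterotrimer, had 10084, 6291 and 18868 against 13197, 10159 and 10383. Col3a1 had 24927, 18103 and 37525 against 36493, 28139 and 24255. In each case the Rx-Dicer values fell inside the range of the controls, with control 2 the lowest library and, among controls, control 3 the highest.

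The log2 fold changes were 0.19 ± 0.21 for Col1a1 (95% interval -0.22 to 0.60), -0.06 ± 0.43 for Col1a2 (-0.91 to 0.79) and 0.14 ± 0.23 for Col3a1 (-0.31 to 0.59), with DESeq2 adjusted p-values of 0.830, 0.987 and 0.909. Each of the 3 directions turned when 1 library was left out: Col1a1 was -0.045 without control 2, Col3a1 was -0.076 without control 2 and -0.037 without Rx-Dicer 1, and Col1a2 was 0.46 without control 3 and 0.0094 without Rx-Dicer 2. The median log2 fold change of all 11 fibrillar collagens was 0.08, and 0.38 without control 3.

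Of the remaining fibrillar genes, Col5a1, whose chain helps start fibril assembly, had 3132, 3172 and 4479 normalised counts in control and 4529, 4401 and 4496 in Rx-Dicer samples, with the groups overlapping through control 3. Its log2 fold change was 0.32 ± 0.16 (DESeq2 adjusted p = 0.354). Without control 3, Col5a1 was called at 0.51 (adjusted p = 6.36e-04), and so was Col11a1 at 0.43 (adjusted p = 0.0474), against 0.20 ± 0.17 with all libraries. Col5a2, Col5a3, Col11a2, Col24a1 and Col27a1 had log2 fold changes of -0.20 to 0.08.

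Type IV collagen genes lie in pairs that are read outward from a shared region, and the chains of a pair often assemble together. In the annotation the 5′ ends of Col4a1 and Col4a2 are 21 bases apart on chromosome 8, those of Col4a3 and Col4a4 are 72 bases apart on chromosome 1, and those of Col4a5 and Col4a6 are 1309 bases apart on the X chromosome. Of 5 type IV genes with an adjusted p, Col4a6 was called.

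Col4a6 (chrX:141165403-141474076, minus strand) had 561, 457 and 378 normalised counts in control and 948, 716 and 767 in Rx-Dicer samples. Every Rx-Dicer sample was above every control. It rose 1.75-fold, from 465 ± 91.8 to 810 ± 122, a log2 change of 0.80 ± 0.19 (95% interval 0.43 to 1.17), a DESeq2 adjusted p of 0.00280 and an edgeR adjusted p of 0.171. It was called with each library left out, at 0.67 to 0.96.

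Its neighbour Col4a5 (chrX:141475385-141689234, plus strand), the chain that joins it in some basement membranes, had 1809, 1504 and 1593 normalised counts in control and 2231, 1899 and 1819 in Rx-Dicer samples. The lowest Rx-Dicer value was just above the highest control value. The log2 fold change was 0.28 ± 0.14 and did not pass (DESeq2 adjusted p = 0.364, edgeR adjusted p = 0.355). Both genes lie on the X chromosome, and the sex of the samples is not given. That Col4a6 changed more than Col4a5 was not tested.

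Col4a1 and Col4a2, the chains of the type IV network found in almost all basement membranes, did not pass. Col4a1 had 13073, 14729 and 20133 normalised counts in control and 19148, 21217 and 11444 in Rx-Dicer samples. Col4a2 had 8838, 9687 and 13848 against 13075, 14284 and 8041. The 6 libraries had the same order for both genes, from Rx-Dicer 3 at the bottom to Rx-Dicer 2 at the top, so that the groups overlapped fully. The log2 fold changes were 0.11 ± 0.22 (95% interval -0.32 to 0.54, DESeq2 adjusted p = 0.936) and 0.13 ± 0.22 (adjusted p = 0.917). Col4a1 turned to -0.015 without control 1 and -0.058 without Rx-Dicer 2, and Col4a2 to -0.027 without Rx-Dicer 2. Col4a4 had 10.5 to 22.5 normalised counts per library.

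Vessel markers were set beside these chains. The 10 endothelial markers (Cdh5, Kdr and Tie1 the most abundant) summed to 203, 210 and 211 CPM in control and 268, 282 and 121 in Rx-Dicer samples, none was called and none was at 0. Rx-Dicer 3 was again the lowest library. It was also the lowest for Col15a1, a basement membrane zone collagen around vessels, with 599, 658 and 944 normalised counts in control and 1220, 1029 and 362 in Rx-Dicer samples (log2 fold change 0.25 ± 0.53, DESeq2 adjusted p = 0.943). The 6 pericyte markers summed to 200, 260 and 280 CPM in control and 244, 269 and 203 in Rx-Dicer samples, with control 1 the lowest library. The part of vessel content in the type IV values was not tested.

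Col18a1 (chr10:77052178-77166548, minus strand), the other multiplexin and the source of the endostatin fragment, is a heparan sulphate proteoglycan of basement membranes. It had 8191, 7859 and 6935 normalised counts in control and 13348, 10708 and 9896 in Rx-Dicer samples. All Rx-Dicer samples were above the controls, Rx-Dicer 3 included. It rose 1.48-fold, from 7661 ± 651 to 11318 ± 1805, a log2 change of 0.56 ± 0.14 (95% interval 0.28 to 0.84), a DESeq2 adjusted p of 0.00802 and an edgeR adjusted p of 0.165. This was the least steady of the 5 calls: the change was 0.58 (adjusted p = 0.0529) without control 2 and 0.50 (adjusted p = 0.0809) without control 3.

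Of the 9 fibril-associated collagens (FACIT), which lie on the surface of fibrils, 8 had an adjusted p and Col22a1 was called. Col22a1 (chr15:71795795-72034227, minus strand), best known from the junctions between muscle and tendon, had 657, 511 and 540 normalised counts in control and 1242, 813 and 978 in Rx-Dicer samples. The groups were apart, with the widest spread among Rx-Dicer samples. It rose 1.78-fold, from 570 ± 77.2 to 1011 ± 216, a log2 change of 0.83 ± 0.19 (95% interval 0.46 to 1.20), a DESeq2 adjusted p of 0.00148 and an edgeR adjusted p of 0.158. It was called with each library left out, at 0.65 to 0.97.

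The other 7 FACIT members with an adjusted p did not pass and differed in sign, from -0.56 for Col9a1 to 0.79 for Col20a1, a gene with 14.3 to 50.6 normalised counts. Col9a2, a chain of the type IX collagen that coats type II fibrils, had 612, 489 and 444 normalised counts in control and 784, 502 and 1026 in Rx-Dicer samples, with Rx-Dicer 2 inside the control range. Its log2 fold change was 0.58 ± 0.24 (DESeq2 adjusted p = 0.203), and 0.82 (adjusted p = 0.00644) without Rx-Dicer 2. Col9a1 and Col9a3, its partners, were at -0.56 ± 0.53 and -0.16 ± 0.26.

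The type VI collagens, which form beaded filaments, had 5 genes with an adjusted p, with 0 called and log2 fold changes from 0.01 for Col6a2 to 0.56 for Col6a3. By edgeR 0 of them passed and 0 had an unadjusted p under 0.05. Col6a5 had 0 to 8.58 normalised counts per library and no adjusted p. Col8a2, a short-chain network collagen, had 1594, 1939 and 6089 normalised counts in control and 2448, 2401 and 2090 in Rx-Dicer samples, where control 3 stood far above the other 5 libraries. Its log2 fold change was -0.47 ± 0.61 (DESeq2 adjusted p = 0.872), and that of the related Col8a1 -0.18 ± 0.74. Col7a1, the collagen of anchoring fibrils, and Col26a1 were at -0.32 ± 0.32 and -0.09 ± 0.25.

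Collagen levels were then set in order per length of annotated exon, as CPM per kilobase in control samples. Col3a1 was first at 64.7 ± 24.6 (SD, n = 3), followed by Col4a1 at 50.5 ± 12.2, Col4a2 at 38.5 ± 9.98 and Col2a1 at 37.9 ± 4.30, and each of these overlapped the next within its SD. Col1a1 at 25.8 ± 8.53, Col18a1 at 25.7 ± 2.07 and Col1a2 at 22.4 ± 12.6 came next and could not be ranked among themselves. Of the 5 called genes, Col2a1 and Col18a1 thus belong to the abundant collagens of this tissue, going to 59.1 and 38.5 CPM per kilobase in Rx-Dicer samples.

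The other called collagens were scarce. Col22a1, at 1.46 ± 0.213 CPM per kilobase, and Col4a6, at 1.37 ± 0.274, overlapped each other. Col25a1 ranked 27 of 44 at 1.05 ± 0.209 and went to 0.322. The lowest member was Col6a5 at 0.00246.

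**Figure D3:**
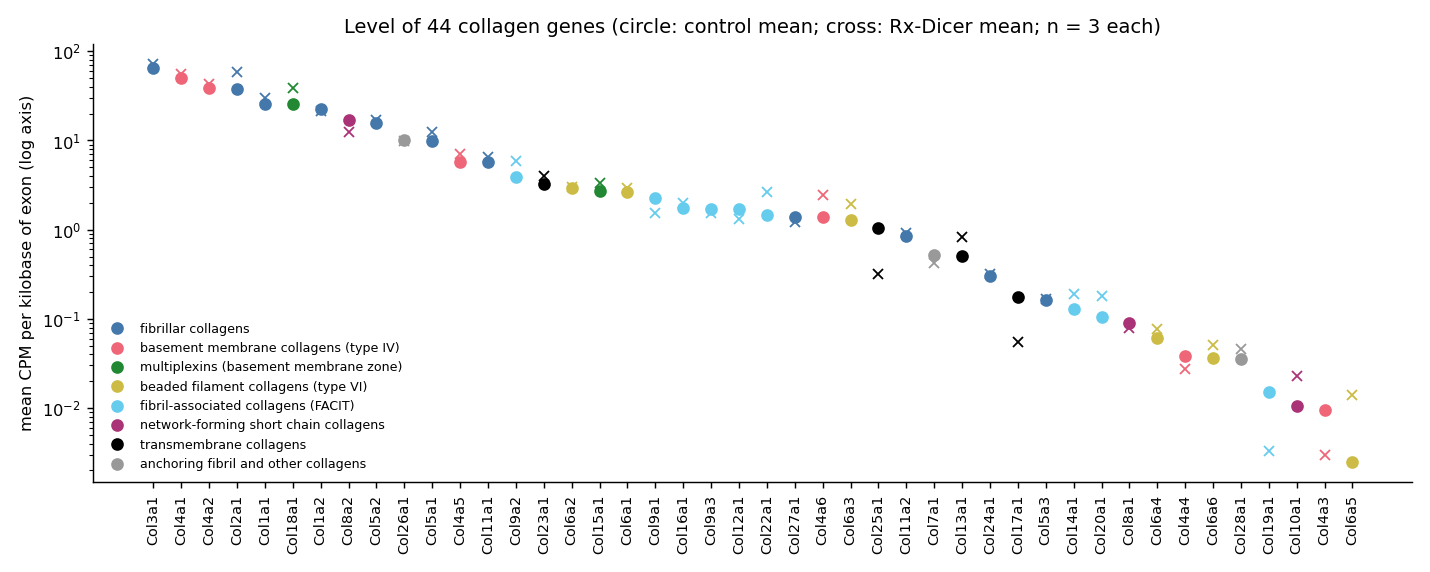
Mean levels of the 44 collagens in control and Rx-Dicer samples are plotted in CPM per kilobase of exon on a log axis, in order of the control mean. Levels span from 64.7 for Col3a1 to 0.00246 for Col6a5 in control samples, and Col25a1 shows the widest gap between genotypes among the members with more than 10 normalised counts in every library.

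Summed levels described each class as a whole. The 11 fibrillar collagens summed to 1662, 1275 and 2367 CPM in control and 2386, 2054 and 1851 in Rx-Dicer samples. The 6 type IV collagens summed to 577, 609 and 859 against 854, 936 and 507. Both classes overlapped between genotypes and varied with single libraries, control 3 being the highest control and Rx-Dicer 3 the lowest Rx-Dicer sample.

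The multiplexins Col15a1 and Col18a1 summed to 209, 196 and 188 CPM in control and 351, 288 and 236 in Rx-Dicer samples, the class without overlap. All collagens together took 2308 to 3903 CPM in control and 2877 to 3975 in Rx-Dicer samples.

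Col25a1 was also expressed as a ratio to these sums. On a log2 scale Col25a1 over the fibrillar sum was -6.72, -6.92 and -7.35 in control and -9.37, -8.70 and -8.87 in Rx-Dicer samples, a difference of -1.98. Over the type IV sum it was -5.20, -5.85 and -5.89 against -7.89, -7.56 and -7.00, a difference of -1.84. In both ratios each Rx-Dicer sample was below each control. Col25a1 alone already separated the groups, with a log2 ratio of mean CPM of -1.71, and both sums overlapped between genotypes. The order of these ratios is therefore no separate support for the change. An exact permutation test of 3 against 3 samples cannot go below p = 0.1, so none was used.

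**Figure D4:**
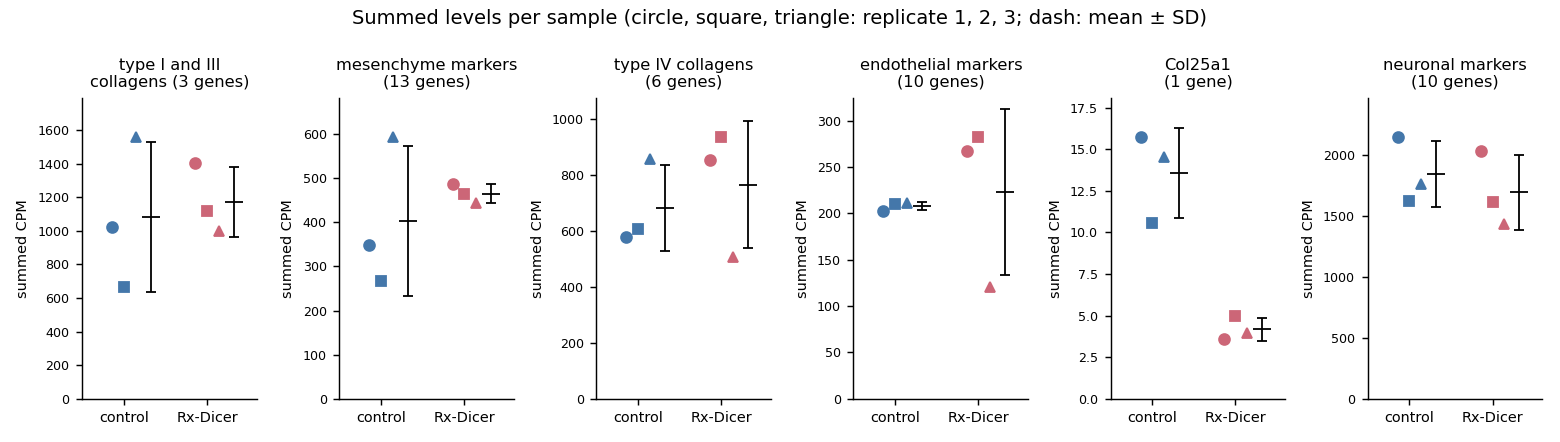
Summed CPM of the type I and III chains, type IV collagens, Col25a1 and the mesenchymal, endothelial and neuronal marker lists is plotted for each of the 3 control and 3 Rx-Dicer samples, with a dash and error bar for the mean ± SD. The type I and III sum (669 to 1558 CPM in control, 996 to 1405 in Rx-Dicer samples) and the type IV sum overlap between genotypes, whereas Col25a1 goes from 10.5 to 15.7 CPM in control to 3.60 to 4.95 CPM in Rx-Dicer samples.

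Markers of mesenchyme and meninges were set beside the fibrillar collagens. The 13 markers (Lum, Prrx1 and Alx4 the most abundant) summed to 349, 267 and 593 CPM in control and 487, 463 and 443 in Rx-Dicer samples, and none was at 0. As for Col1a2 and Col3a1, control 2 was the lowest library for this sum and control 3 the highest. Not every marker had this order, as Lum was highest in Rx-Dicer 1 and Dcn lowest in control 3. In the list 1 gene (7.69%), Foxd1, was called higher, where 1.75% of all genes were, and none lower. Foxd1 had 486, 415 and 638 normalised counts in control and 780, 945 and 777 in Rx-Dicer samples (DESeq2 adjusted p = 0.0142, edgeR adjusted p = 0.200). With each of the 6 libraries left out in turn, it was called 2 times. The 9 markers of microglia and macrophages summed to 35.9 to 47.1 CPM in control and 46.7 to 133 in Rx-Dicer samples. Of these, 2 (22.2%) were called higher, Csf1r and Cx3cr1, where 1.75% of all genes were. Csf1r had 385, 275 and 322 normalised counts in control and 938, 354 and 636 in Rx-Dicer samples. Cx3cr1 had 283, 194 and 236 against 796, 282 and 531, and for both genes the groups overlapped through Rx-Dicer 2. Their DESeq2 adjusted p-values were 0.0330 and 0.0101, and their edgeR adjusted p-values 0.271 and 0.236. With each of the 6 libraries left out in turn, Csf1r was called 1 time and Cx3cr1 2 times. The part of either list in the collagen values was not tested.

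The machinery that makes, joins and receives collagen was examined as a list of 55 genes, of which 53 had an adjusted p, with 2 called higher and 0 lower, where 2.93% of all genes were called. By edgeR 0 of them passed and 10 had an unadjusted p under 0.05, where 12.9% of all genes did. The groups were apart for 9 of the 53, in either direction, where 19.3% of all genes had groups apart. In the 14 genes of processing and cross-linking, log2 fold changes ranged from 0.15 to 0.98 with a median of 0.39, and 1 gene passed. It was Loxl1, a lysyl oxidase that cross-links matrix fibres, with 706, 404 and 685 normalised counts in control and 1202, 1016 and 1117 in Rx-Dicer samples. The groups were well apart, and its log2 fold change of 0.89 ± 0.21 had a DESeq2 adjusted p of 0.00198 and an edgeR adjusted p of 0.176.

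Among 13 receptors, Itga2, the alpha subunit of an integrin that binds collagen, was called, with 243, 158 and 163 normalised counts in control and 363, 324 and 272 in Rx-Dicer samples. The groups were apart, and the log2 fold change was 0.77 ± 0.23 (DESeq2 adjusted p = 0.0366, edgeR adjusted p = 0.232). This call was lost without control 2 (0.66, adjusted p = 0.271), control 3 (0.68, 0.209), Rx-Dicer 1 (0.67, 0.166) or Rx-Dicer 2 (0.77, 0.119). Its partner subunit Itgb1 was at 0.36 ± 0.12 (DESeq2 adjusted p = 0.0792), and was called without control 1 (0.41, adjusted p = 0.0413) or Rx-Dicer 2 (0.43, adjusted p = 0.00705). Adgrg1, a neuroepithelial receptor for type III collagen, was at 0.05 ± 0.11, and Ddr1, a receptor tyrosine kinase for collagen, at 0.16 ± 0.12.

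The 19 genes of folding and modification had a median of 0.13 and 0 calls by DESeq2 or edgeR, with 2 at an unadjusted edgeR p under 0.05. Among them Serpinh1, the collagen chaperone, was at 0.13 ± 0.14. Plod2, which hydroxylates lysines used in cross-links, was at 0.47 ± 0.15 (DESeq2 adjusted p = 0.0626), and at 0.58 (adjusted p = 0.0215) without control 3. In the 9 genes of degradation and its inhibitors 7 had an adjusted p and 0 passed either test, with 2 at an unadjusted edgeR p under 0.05.

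Loxl1 and Itga2, which were called, and Plod2 and Itgb1, which were not, were among the 9 pathway genes whose groups did not overlap. The other 5 were not called either. They were Timp3, an inhibitor of metalloproteinases, at 0.38, Furin, a proprotein convertase, at 0.28, Pcolce2, an enhancer of procollagen cleavage, at 0.51, Mia3, which helps load collagen for export, at 0.23, and Mmp9, a gelatinase, at -0.96 ± 0.49. The number of pathway genes called was 6 without control 1 and 1 without control 2 or Rx-Dicer 1. Those gained without control 1 were Tll2, Lox, Itgb1 and Ptprd.

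Since Dicer makes mature miRNAs, the 3′ UTRs of the collagens were read for words that match miRNA seeds, the bases 2 to 8 of a miRNA. The longest annotated 3′ UTR of each gene was searched on the transcribed strand. The families were miR-29, a known regulator of collagens in other tissues, let-7 and miR-9, both abundant in embryonic brain. From small RNA-seq at E11.5 the study reported significant reductions for few mature miRNAs, most of them let-7 members. By in situ hybridisation it reported a substantial reduction of miR-9 at a later age. Whether miR-29 was present or reduced in these samples was not examined here. One mature sequence of each family, from RefSeq, is given to show the seed in capitals.

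mmu-miR-29a-3p: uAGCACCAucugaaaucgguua

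mmu-let-7a-5p: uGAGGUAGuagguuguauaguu

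mmu-miR-9-5p: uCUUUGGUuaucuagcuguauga

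The seed of miR-29a-3p is shared by 3 mature mouse miRNAs, that of let-7a-5p by 11, and that of miR-9-5p by 1. The 7-base words searched were TGGTGCT for miR-29, CTACCTC for let-7 and ACCAAAG for miR-9, and an 8-base word has a final A in addition. The miR-29 word was in 25 of 44 collagen 3′ UTRs (56.8%), against 13.1% of the 3′ UTRs of 21001 genes, and the 8-base form was in 16 (36.4%), against 2.86%. Median 3′ UTR length was close, 1033 bases for collagens and 961 for all genes. In 11 collagens the miR-29 word occurred more than once. The let-7 word was in 9 collagens (20.5%, against 9.02%) and the miR-9 word in 8 (18.2%, against 12.2%).

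Of the 5 called collagens, 4 held the miR-29 word, 3 of the 4 that were higher and the 1 that was lower, and Col18a1 did not. The words are shown in capitals with their neighbouring bases, 5′ to 3′ on the transcribed strand, because the same 8 bases stand in genes that changed in opposite directions.

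Col2a1 (GRCm38 chr15:97975681-97975688, minus strand): gtcctacacaaTGGTGCTAttctgtgtcaa

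Col4a6 (chrX:141166514-141166521, minus strand): ttccatccatcTGGTGCTAacattccattt

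Col22a1, first word (chr15:71798668-71798674, minus strand): gtggttatcctTGGTGCTtcaggctacca

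Col22a1, second word (chr15:71798587-71798593, minus strand): tatgaacaagcTGGTGCTgaagaagagtt

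Col25a1 (chr3:130597881-130597888, plus strand): atttgtgttgtTGGTGCTAatagatcttcc

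The word was also present in collagens that did not pass. Col4a5 held 3 of the 8-base form, and Col1a1 and Col3a1 held 1 each, shown here as examples from the abundant fibrillar chains.

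Col1a1 (chr11:94952538-94952545, plus strand): gaaggaatttcTGGTGCTAtagaagctgag

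Col3a1 (chr1:45348982-45348989, plus strand): aaatgtctcaaTGGTGCTAtaataaataaa

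The 24 collagens with the miR-29 word that had an adjusted p had a median log2 fold change of 0.12, and the 15 without it 0.31. Over all genes the medians were 0.04 with the word and 0.00 without. With the 8-base form the medians of collagens with and without it were both 0.13, so the gap between the medians was not seen with the longer word. Genes with and without the 7-base word were not matched for 3′ UTR length. Over all genes its median was 2401 bases with the word and 823.5 without, and over collagens 1315 and 882.

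None of the called collagens held the let-7 word. Its 8-base form was in 3 collagens, Col1a2, Col3a1 and Col5a2, whose changes of -0.06, 0.14 and 0.08 did not pass.

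Col1a2 (chr6:4541077-4541084, plus strand): aaaggtttgaaCTACCTCAagacactttgc

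Col3a1 (chr1:45349150-45349157, plus strand): ccctatgttaaCTACCTCAactggtcagaa

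Col5a2 (chr1:45375101-45375108, minus strand): cttagcatgacCTACCTCAtctctgcaagc

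The 9 collagens with the let-7 word had a median of 0.08 and the 30 without it 0.17, and among all genes the medians were 0.04 and 0.003. For miR-9 the medians were -0.20 over 7 collagens with the word and 0.17 over 32 without, and among all genes 0.09 and -0.01. Here too 3′ UTR length was not matched. Over all genes its median was 2282.5 bases with the let-7 word and 869 without, and 2419 and 830 for miR-9. The 2 called collagens with a miR-9 word changed in opposite directions, Col22a1 higher and Col25a1 lower. Those of Col25a1 are shown, since it is the member that fell.

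Col25a1, first miR-9 word (chr3:130595811-130595817, plus strand): ttggttgaaatACCAAAGggttaggctga

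Col25a1, second miR-9 word (chr3:130596179-130596185, plus strand): aagcagactttACCAAAGgtcgtcggaaa

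A word of this kind is a match of letters, and binding of a miRNA there was not measured.

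**Figure D5:**
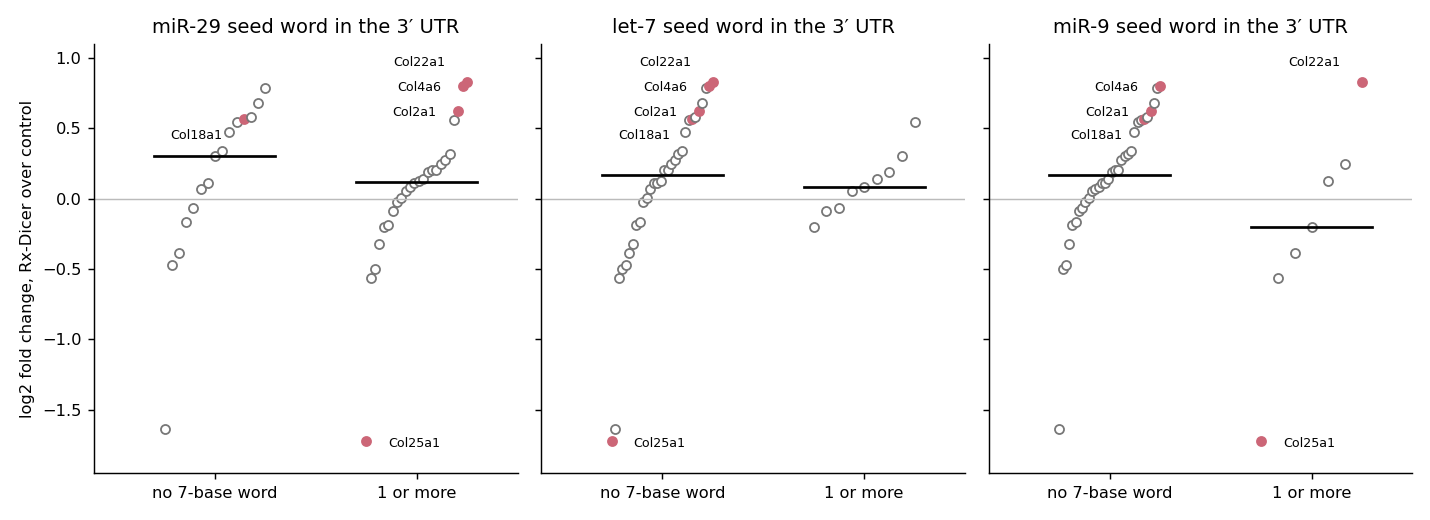
The log2 fold change of each collagen with an adjusted p is plotted by whether its 3′ UTR holds at least 1 seed word of miR-29, let-7 or miR-9, with a bar at the median and filled points for called genes. Medians with and without the word are 0.12 and 0.31 for miR-29, 0.08 and 0.17 for let-7, and -0.20 and 0.17 for miR-9.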

How the data were processed

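RNA-seq libraries of 3 control and 3 Rx-Dicer samples were analysed; the small RNA libraries were not used here. The deposited files held raw counts of reads for each Ensembl gene. The authors aligned reads to GRCm38 with HISAT2 and counted them with HTSeq (union mode, reverse strand), so antisense genes do not share reads, and reads on several genes or places were counted for none. The submitters' processing notes name FastQC 2.6.14, Trim Galore 0.6.5, HTSeq 0.12.4 and GRCm38.p6. Each sample had 2 files, 12 in all, whose counts differed little more than sampling noise (chi-square per degree of freedom 1.11 to 1.47, against 20.5 to 29.6 between samples of a group), and they were summed. Lines that name no gene held 24.9 to 31.0% of reads and were left out.

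Genotypes were compared over all genes by Wald test in DESeq2 (version 1.42.0 under R 4.3.3), which the study also used, with genotype as the only term, median-of-ratios size factors and Benjamini-Hochberg adjustment with independent filtering. Intervals are 95% Wald intervals. edgeR's quasi-likelihood test (edgeR 4.0.16, TMM, at least 10 counts in at least 3 samples) was the first alternative, and the scripts were tested on simulated data. Other alternatives were other scalings, filters and thresholds, each file alone, the replicate number as a block, and leaving out each library. Class levels are summed CPM, total-count scaled, without a test. Exon lengths, positions and 3′ UTRs came from GENCODE M21 on GRCm38, and 55230 of 55471 identifiers matched.

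Values per sample are given for Col25a1, the main type I, II, III and IV chains and Col4a5, collagens that were called, and those whose groups did not overlap. Other collagens and pathway genes with values in the text were picked once those values were known. The members and lists were chosen with earlier results of these data known.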

Additional observations from a re-analysis of the deposited data

How the results depend on the processing

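Under the 15 alternatives, DESeq2 called 4 to 7 collagens (3 to 6 higher, 1 lower) as single libraries were left out, and 5 under every other DESeq2 setting. Without control 3 Col18a1 was lost and Col5a1, Col11a1 and Col13a1 were gained. edgeR's quasi-likelihood test called 0 (0 higher, 0 lower), with Col25a1 at -1.72 and an adjusted p of 0.0520. Col25a1, Col2a1, Col4a6 and Col22a1 passed in 14 of 15 and Col18a1 in 12 of 15. Over all genes 502 were called (300 higher, 202 lower). The numbers were 8, 8 and 0 by edgeR, 322 with 108 lower without independent filtering, and 308 lower at an adjusted p under 0.1. They were 285 to 637 (172 to 429 higher, 84 to 371 lower) with a library left out. Pathway calls, 2 in the main analysis, were 0 by edgeR, 4 with a count filter or at an adjusted p under 0.1, 1 without independent filtering or with the second file alone, and 1 to 6 with a library left out. The median of fibrillar collagens was 0.037 to 0.38 with a library left out, and Dicer1 -0.47 to -0.16. Uncalled changes that turned when a library was left out ranged from -0.045 to 0.38 for Col1a1, -0.36 to 0.46 for Col1a2, -0.076 to 0.46 for Col3a1, -0.058 to 0.34 for Col4a1 and -0.027 to 0.35 for Col4a2. The cause was not tested.

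The study compared mutants with control littermates, but whether replicate numbers mark littermates is not given. Deviations of same-numbered samples from their group means correlated at 0.18, 0.03 and -0.14 over 17954 genes, and those of the other pairs at -0.17 to 0.17. With 3 samples per group these values cannot decide whether the samples are paired. With the number as a replicate block, 314 genes (87 lower), 5 collagens and 1 pathway gene were called, and Col1a2 turned to 0.080. Collagens of few counts, such as Col4a4 (89 counts in all, SE 0.64), are limited by depth.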
